A study of Mus musculus with 4 samples.

Results

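The 7 genes described here, Defa24, Defa17, Defa30, Lyz1, Mmp7, Itln1 and Ang4, encode products for which mature Paneth cells are known. They were taken by name from the 32227 features of the gene lists and followed in every cell of 4 single-cell RNA libraries of neonatal mouse small intestine. All 7 were present in the feature lists, and each had UMIs (unique molecular identifiers, counts of distinct captured RNA molecules) in all 4 libraries. The libraries came from the jejunum and the ileum of 2 wild-type (WT) mice at postnatal day 6 (P6), described in the methods as C57BL/6J, and no other genotype, age or treatment was part of the comparison. The mouse labelled male, in batch 1, gave replicate 1 of both regions, and the mouse labelled female, in batch 2, gave replicate 2, so mouse, labelled sex and batch cannot be told apart. The epithelium was released with EDTA and dissociated with dispase, which keeps no record of a cell's place along the crypt and villus.

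Paneth cells sit at the base of the crypts of the small intestine, where they release antimicrobial peptides and proteins from large granules and border the intestinal stem cells. In mice they appear with the crypts, during the weeks after birth, so the age studied here precedes their maturation. Alpha-defensins are short peptides held by disulfide bonds between cysteines, and they are made as precursors. Mmp7 (matrilysin) is the protease that cuts mouse alpha-defensin precursors to their active form. Lyz1 is the lysozyme of Paneth cells, which cleaves bacterial cell walls, Itln1 is a lectin that binds microbial sugars, and Ang4 is an RNase of the angiogenin family with antimicrobial activity. Goblet cells, the mucus-secreting cells of the epithelium, belong to the same secretory lineage.

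The 4 libraries held 36202 called cells, of which 30522 passed the limits of the study (1000 to 6000 genes and under 20% mitochondrial UMIs), with 5723 to 8997 cells per library. The median ileal cell held 12047.5 and 10916 UMIs and the median jejunal cell 4690 and 5884, so the regions differed in depth as well as in tissue. Mitochondrial UMIs made up 3.61% and 3.74% of the median ileal cell against 6.37% and 9.94% of the median jejunal cell. Region labels held against their markers: Fabp6, the ileal bile acid binding protein, stood at 205 and 359 CPM (UMIs scaled to a common library total) in the ileum against 0.425 and 0.302 in the jejunum. The sex-linked genes went against the labels in both mice, with Xist at 575 and 466 CPM in the 2 libraries of the mouse labelled male and 0.705 and 0.906 CPM in those of the mouse labelled female. Whether labels or libraries were exchanged was not tested, and no comparison below uses sex. No kept barcode was shared between libraries.

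The 3 alpha-defensins are near-identical genes, and their sequences show how little separates the reads of one from those of another. Defa24 lies at chr8:21734494-21735471, Defa17 at chr8:21655780-21656735 and Defa30 at chr8:21134642-21135598, all on the plus strand of GRCm38. Each coding sequence has 282 bases. The last 117 coding bases, which encode the end of the peptide with its cysteines and the stop codon, are printed from the GENCODE vM21 transcripts, with the 8 positions at which the 3 genes differ in capitals.
Defa24: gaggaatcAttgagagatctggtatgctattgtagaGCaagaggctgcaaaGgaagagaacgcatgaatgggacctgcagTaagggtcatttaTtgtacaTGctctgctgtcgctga
Defa17: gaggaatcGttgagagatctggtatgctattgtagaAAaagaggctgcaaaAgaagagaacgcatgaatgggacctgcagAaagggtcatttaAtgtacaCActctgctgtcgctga
Defa30: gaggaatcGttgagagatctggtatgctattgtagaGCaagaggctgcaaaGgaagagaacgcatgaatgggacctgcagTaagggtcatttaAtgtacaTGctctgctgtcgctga
Over this stretch Defa24 differed alone at 2 of the 8 positions and Defa17 alone at 6, while Defa30 had no base of its own. All 3 carried 6 cysteine codons in frame. Over the whole coding sequence Defa24 and Defa30 were 98.6% identical, Defa24 and Defa17 95.7%, and Defa17 and Defa30 97.2%. Over the last 150 transcript bases, a length chosen here since the libraries are 3′ libraries, the same pairs were 96.7%, 93.3% and 91.4% identical. Which bases the reads cover was not examined. Defa17 was identical in its coding sequence to Defa3, a further family member, and 99.3% identical to it over the last 150 bases. How reads that match more than 1 copy were counted is not given in the sources used here, so the split of UMIs among these symbols is uncertain. Lyz1 (chr10:117287797-117292868, minus strand) shares 90.3% of its last 150 bases with Lyz2, the lysozyme of macrophages. Lyz2 had 62 UMIs in 15 kept cells. Mmp7 (chr9:7692090-7699585, plus strand) and Itln1 (chr1:171518122-171535294, minus strand) were not compared with other transcripts. Ang4 (chr14:51763878-51773590, minus strand) was at most 75.2% identical over its last 150 bases to the 3 other angiogenin transcripts compared.

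RNA of the 7 genes was present in both regions at P6, and it was sparse. The kept cells held 8598 UMIs of the 7 genes together, and 6220 cells (20.38%) had at least 1. In 83.81% of those cells it was a lone UMI. Defa24 gave 4402 UMIs (51.2% of the sum), Defa17 2040 (23.73%), Defa30 1269 (14.76%), Lyz1 402, Ang4 272, Itln1 118 and Mmp7 95. These totals are counts of captured molecules per gene and are not scaled by transcript length, which 3′ counting does not require.

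Defa24 was found in 11.11% and 8.95% of the cells of ileum replicates 1 and 2 and in 12.69% and 10.08% of the cells of jejunum replicates 1 and 2. Defa17 was found in 6.81% and 6.01% of ileal and 5.89% and 4.21% of jejunal cells. Defa30 was found in 3.96% and 2.84% of ileal and 4.43% and 3.95% of jejunal cells. In these raw shares Defa17 was the only gene of the 3 with both ileal libraries above both jejunal ones.

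Lyz1 was found in 1.01% and 0.412% of ileal cells against 1.66% and 1.59% of jejunal cells. Ang4 was found in 1.26% and 0.729% of ileal and 0.745% and 0.664% of jejunal cells. Itln1 stood between 0.188% and 0.467% and Mmp7 between 0.176% and 0.345% over the 4 libraries. For Itln1 and Mmp7 each library rests on 14 to 42 positive cells, and the libraries of the regions overlapped.

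The mean number of UMIs per positive cell was higher in both jejunal libraries for each of the 3 defensins, with the widest gap for Defa24. For Defa24 it was 1.19 and 1.13 in the ileum against 1.48 and 1.55 in the jejunum. For Defa17 it was 1.14 and 1.09 in the ileum against 1.17 and 1.24 in the jejunum, and for Defa30 1.06 and 1.07 against 1.13 and 1.12. These means are weighted by few cells: 12 and 10 jejunal cells with 5 or more Defa24 UMIs held 25.3% and 30.8% of its jejunal UMIs. The share of positive cells with a lone UMI overlapped between regions for all 3 defensins. For Defa24 this share was 88.3% and 91.2% (ileal libraries) and 88.8% and 90.3% (jejunal libraries). The order of the means was not counted over all genes. Positive cells of Ang4 held 1 UMI without exception in 3 libraries, and in jejunum replicate 1 the mean was 1.19.

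**Figure D1:**
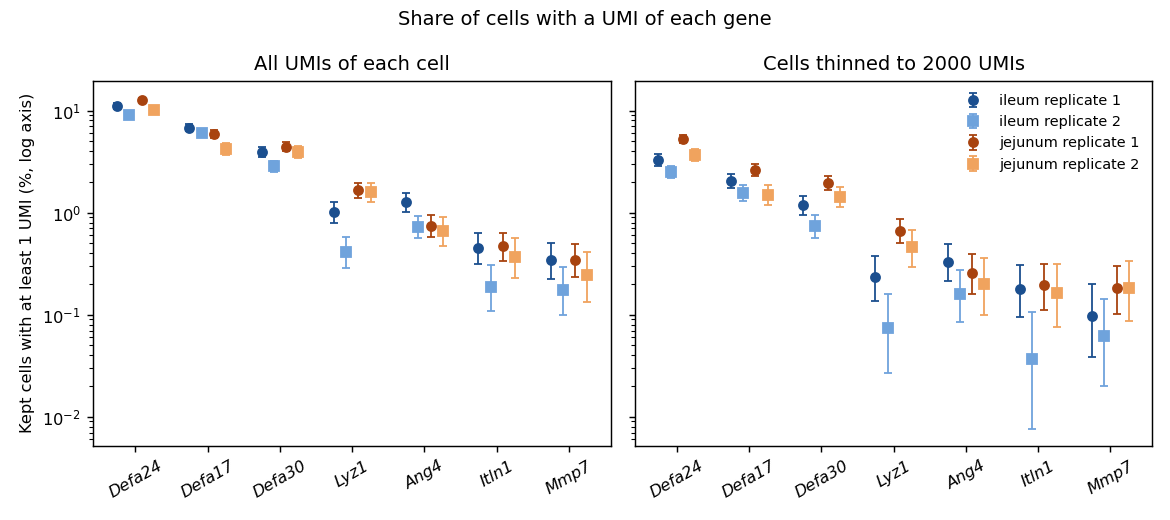
Percentage of kept cells with at least 1 UMI of each gene (log axis) in each of the 4 libraries, from all UMIs (left) and after each cell was thinned to 2000 UMIs (right); bars are exact 95% binomial intervals. The genes keep the order Defa24, Defa17, Defa30 in every library. After thinning both jejunal libraries lie above both ileal ones for Defa24, Defa30, Lyz1 and Mmp7, an order that was not counted over all genes.

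Without thinning, 21.77% and 17.58% of ileal cells had any of the 7 genes, against 22.85% and 18.87% of jejunal cells, and the regions overlapped. To compare shares at equal depth, each cell was thinned at random to 2000 UMIs, and the shallower cells (54 and 335 ileal, 764 and 253 jejunal) were left out. The share with any of the 7 genes was then 6.85% and 4.92% in ileal libraries against 9.94% and 7.08% in jejunal ones. The means were 5.88% ± 1.36 (SD, n = 2) and 8.51% ± 2.02 (SD, n = 2), a difference of -2.62 percentage points, and the regions did not overlap. Thinning lowers the share most in the deeper, ileal cells, and the UMIs of most of these genes followed depth only weakly (below), so this order rests on the thinning. Defa24 fell in the same order, with 3.29% and 2.51% in the ileum against 5.28% and 3.67% in the jejunum. Lyz1 had 0.235% and 0.0735% against 0.668% and 0.457%.
Defa30 and Mmp7 did not overlap either, with regional means of 0.961% against 1.68% and 0.0789% against 0.182%. How many of all genes fall in this order after thinning was not counted. Defa17 (1.80% against 2.06%), Itln1 (0.108% against 0.179%) and Ang4 (0.245% against 0.228%) did overlap. The exact two-sided permutation test over 4 libraries gave p = 0.333 for the 4 genes without overlap, which is the smallest p this design allows, so no share can pass a threshold here. For Defa17 and Ang4 the exact p was 1.0, and for Itln1 it was 0.667.

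The UMIs were spread unevenly among cells. Of the 30522 kept cells, 72 held 5 or more UMIs of the 7 genes, and these 72 cells held 1321 UMIs, or 15.36% of the sum. They numbered 18 and 12 in the ileal libraries against 27 and 15 in the jejunal ones, but their part of the UMIs was 8.24% and 4.82% against 22.0% and 23.5%. For Defa24, cells with 5 or more of its own UMIs held 5.91% and 3.04% of its ileal UMIs against 25.3% and 30.8% of its jejunal ones. Defa17 had no such cell in ileum replicate 2, and Mmp7 and Itln1 had none in any library, with highest cells of 4 and 3 UMIs.

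The richest cell, in jejunum replicate 1, carried all 7 genes: 146 UMIs of Defa24, 24 of Defa17, 7 of Defa30, 31 of Lyz1, 10 of Ang4, 3 of Mmp7 and 2 of Itln1, in a total of 2792 UMIs. The second, in jejunum replicate 2, had 122 UMIs of Defa24, 9 of Defa17 and 1 of Defa30, and 0 of the other 4 genes. A further cell of jejunum replicate 1 had all 7 genes as well, with 43 UMIs of Defa24, 17 of Defa30 and 12 of Lyz1. These were the 2 cells of the series with all 7 genes, and they held 43 of the 402 Lyz1 UMIs. The richest ileal cell, in replicate 1, had 28 UMIs of the 7 genes. Most rich cells had defensin RNA without lysozyme RNA: of 66 cells with 5 or more UMIs of the 3 defensins, 8 (12.1%) had Lyz1, 6 (9.09%) had Mmp7, 5 (7.58%) had Itln1 and 5 had Ang4. Among the 24901 cells with no UMI of the 3 defensins the shares were 1.10%, 0.245%, 0.285% and 0.799%. Jejunum replicate 1 gave most of these cells: without it 3 of 42 (7.14%) had Lyz1, 2 (4.76%) had Mmp7, and 1 (2.38%) each had Itln1 and Ang4. In jejunum replicate 2 none of 15 had Lyz1 or Ang4.

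**Figure D2:**
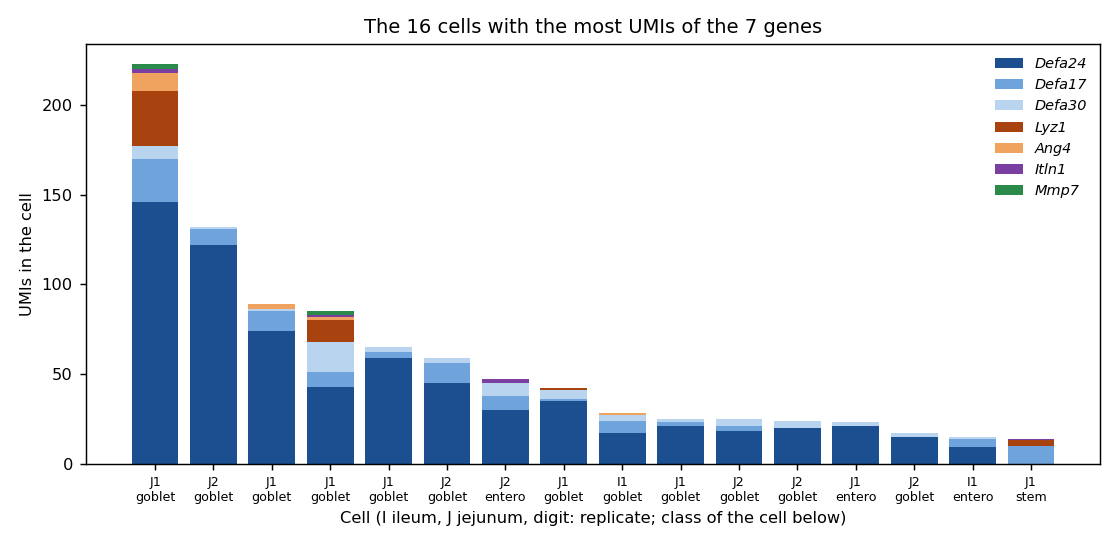
UMIs of each of the 7 genes (stacked bars) in the 16 cells with the most, with the library and cell class under each bar (I ileum, J jejunum, digit for the replicate). Defa24 makes up most of nearly every bar, Lyz1 is prominent in 2 bars, of 223 and 85 UMIs, and 12 of the 16 cells are goblet-like.

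Cells were grouped by clustering without the 7 genes, the alpha-defensin family or the other listed Paneth genes, and clusters were named from marker lists. The result was 28371 enterocyte-like, 1822 stem/progenitor-like, 257 enteroendocrine-like, 52 immune-like and 20 goblet-like cells. No cluster was named Paneth-like. A cluster took the name of the class with the most markers over the limits. The goblet-like cluster also passed those limits for each of the 7 genes, which are all on the Paneth marker list. Its name therefore does not set it apart from Paneth cells. For Lyz1, Mmp7 and Itln1 the positive cells of that cluster all came from jejunum replicate 1. The 20 goblet-like cells (3 in each ileal library, 9 and 5 in the jejunal ones) were 0.0655% of all cells and held 853 UMIs of the 7 genes, which is 9.92% of the sum, 14.5% of Defa24 and 11.2% of Lyz1. Without jejunum replicate 1 their part was 5.58% of the sum, 9.21% of Defa24 and 0.0% of Lyz1, since all 45 Lyz1 UMIs of goblet-like cells came from that library. Of the 20 cells 18 had a UMI of the 7 genes and 16 had 5 or more.

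Defa24 was found in 85.0% of goblet-like cells (exact 95% interval 62.1 to 96.8), Defa30 in 80.0% and Defa17 in 60.0%. In enterocyte-like cells the same genes were found in 10.7%, 3.66% and 5.75%. The level of Defa24 was 9580 CPM in goblet-like cells and 12.6 CPM in enterocyte-like cells, although the goblet-like cells were shallow, with a median of 2901 UMIs against 7700. The level differed by library, with 1000 and 1410 CPM in the 3 goblet-like cells of each ileal library against 13800 and 17800 CPM in the jejunal ones, and in ileum replicate 1 only 1 of the 3 had a UMI of Defa24. Lyz1 was found in 4 of the 20 goblet-like cells, Ang4 in 5, Mmp7 in 3 and Itln1 in 2. All 20 carried Muc2, the main secreted mucin, and Tff3, a trefoil peptide of goblet cells. The richest cell of the series had 27 UMIs of Muc2 and 106 of Tff3. The link did not run the other way in every cell: 2 goblet-like cells of ileum replicate 1, with 166 and 81 UMIs of Muc2, had no UMI of the 7 genes. The naming of this group rests on the clustering, since at resolution 0.5 no goblet-like cluster was formed. Without integration 19 goblet-like cells held 868 UMIs of the 7 genes. With the Paneth genes among the variable genes 22 held 856. In both of these clusterings 16 goblet-like cells had 5 or more.

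**Figure D3:**
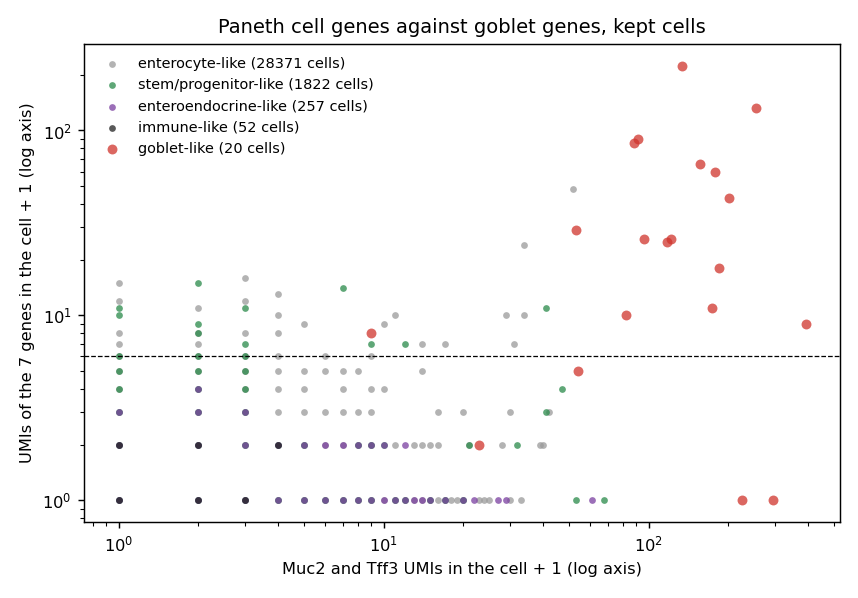
UMIs of the 7 genes against the sum of Muc2 and Tff3 UMIs in each kept cell, both plus 1 on log axes, coloured by cell class; the dashed line marks 5 UMIs of the 7 genes. The cells above 50 UMIs are goblet-like, at the right, 2 goblet-like cells lie at 0 UMIs of the 7 genes, and a row of enterocyte-like and stem/progenitor-like cells just above the line has few goblet transcripts.

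To ask which other genes went with the 7, UMIs were summed in each library over the 72 rich cells and over the cells with none of the 7 genes (5711 and 7007 ileal, 6941 and 4643 jejunal), and the sums were compared by edgeR's quasi-likelihood test with the library as a block. Of 16385 genes tested, 689 passed an adjusted p of 0.05 (4.21%), 233 of them higher in the rich cells (1.42%) and 456 lower. With other size factors 281 were higher and 60 lower, so the number of lower genes depends on the scaling. All 11 goblet markers on the fixed list were tested and all 11 were higher, with a median log2 fold change of 6.08 against -0.23 over all genes. Muc2 stood at 1680 ± 1641 CPM in the rich cells and 7.04 ± 5.00 CPM in the others (SD, n = 4 libraries). Its log2 fold change was 7.21 (SE 0.25). The SE was worked back from the test statistic and does not measure the spread between libraries, which the SD shows to be wide. Clca1, a protein of the mucus layer, rose by 7.65 (SE 0.26), and Atoh1, the transcription factor that directs cells to the secretory lineage, by 6.67 (SE 0.80).
The other genes with the highest fold changes by the naming rule were Tpsg1 (8.01), Clps, a colipase (7.53), and Fer1l6 (6.97), each higher in 4 of 4 libraries. Those with the lowest were Slc25a16 (-4.05), Chgb, a granin of endocrine cells (-2.93), Cldn19 (-2.83), Gal3st1 (-2.74) and Tmx4 (-2.63), each on 3 UMIs or fewer in the rich cells.

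Genes of other listed groups took part to different degrees. Of the 16 other secreted Paneth products listed, 8 were tested and 5 were higher: Clps, Ccl6, Nupr1, Reg4 and Mptx1. Mptx1 had 126 UMIs in 39 kept cells, 88 of them in 1 cell of ileum replicate 1. Of 16 lineage genes 15 were tested and 3 were higher: Atoh1, Spdef and Sox9, of which the first 2 are also on the goblet list. Sox9 is also on the stem/progenitor marker list. No lineage gene passed without the block, without jejunum replicate 2 or within enterocyte-like cells, and 1 passed without jejunum replicate 1. Xbp1, a regulator of secretory cells, had a log2 fold change of -0.37 (adjusted p = 0.571). Without the 20 goblet-like cells 144 genes passed and 7 of 10 goblet markers tested were higher, with Tff3 at 4.04 and Spink4 at 5.21. Within enterocyte-like cells alone 22 genes passed, with 6 of 9 goblet markers higher. Both comparisons still held cells with many goblet transcripts. An enterocyte-like cell of jejunum replicate 2 had 50 UMIs of Tff3 and 11 of Spink4. A stem/progenitor-like cell of that library had 40 and 26. The median of the 39 rich enterocyte-like cells was 2 UMIs of Tff3 and 1 of Spink4, so single cells weigh heavily in these sums. Without the block 46 genes passed, 5 of 9 goblet markers among them, and without jejunum replicate 1 120 genes passed, with 8 of 9. Without jejunum replicate 2 it was 6 of 9 goblet markers.

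Enterocyte-like cells held 82.1% of the UMIs of the 7 genes, since they are 93.0% of all cells, but only 39 of them (0.137%) had 5 or more. Among stem/progenitor-like cells 17 (0.933%) did. The 7 genes together stood at 53.7 CPM (exact 95% interval 49.5 to 58.1) in stem/progenitor-like cells and 25.7 CPM (25.1 to 26.3) in enterocyte-like cells, while the share of cells with a UMI was 21.7% and 20.2%. Stem/progenitor-like cells were shallower, with a median of 4598.5 UMIs against 7700, and among enterocyte-like cells the summed CPM of these genes fell with depth, as given below. The rich stem/progenitor-like cells differed among themselves: a cell of jejunum replicate 1 had 10 UMIs of Defa17, 3 of Lyz1 and 0 of Defa24, whereas one of jejunum replicate 2 had 10 of Defa24 and 2 of Defa17. Intervals on pooled cells cover counting error only.

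Free RNA in a cell suspension gives UMIs in cells that do not make a gene, so immune-like cells, which lack these defensins, serve as the comparison. Defa24 was found in 4 of 52 immune-like cells (7.69%, exact 95% interval 2.14 to 18.5; median 4974.5 UMIs per cell). The 10.7% of enterocyte-like cells lies inside that interval, and at this number of immune-like cells the 2 shares could not be told apart. Lyz1 was found in 2 of 52 immune-like cells (3.85%, 0.469 to 13.2), above the 1.13% of enterocyte-like cells, and Defa30 in 0 of 52, which allows a share of up to 5.77% (3 of 52 cells), against 3.66%. Lyz1 resembles Lyz2, the lysozyme of macrophages, so immune-like cells may not be a clean background for it. No such comparison is given for Defa17, Itln1 or Ang4. Whether the lone UMIs in enterocyte-like cells are free RNA or expression was not tested, and they are not read as expression here. This limit also holds for the regional comparison of enterocyte-like cells. The Defa24 share of goblet-like cells, 85.0%, lies above the interval of that gene in immune-like cells. The 16 richest cells held 14 to 223 UMIs of the 7 genes each, against at most 1 in any immune-like cell.

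Mmp7, the enzyme that activates the defensins, was found in 3 of the 20 goblet-like cells, with 7 UMIs, all in jejunum replicate 1. Outside that class it was more frequent in enteroendocrine-like than in enterocyte-like cells. It was found in 12 of 257 enteroendocrine-like cells, the hormone-secreting cells (4.67%, exact 95% interval 2.44 to 8.01), and in 64 of 28371 enterocyte-like cells (0.226%, 0.174 to 0.288). By library the share was 1.37% of 73 and 2.78% of 72 enteroendocrine-like cells in the ileum and 6.06% of 66 and 10.9% of 46 in the jejunum. In enterocyte-like cells it was 0.339% and 0.125% (ileum) and 0.285% and 0.135% (jejunum), so it was lower than in enteroendocrine-like cells in every library. These 12 cells were 14.1% of all Mmp7-positive cells and held 14.7% of the Mmp7 UMIs, at 13.2 CPM against 0.233 CPM. Only 1 of the 12 had a UMI of the 3 defensins. Their median depth was 3419.5 UMIs, against 3401 for the class and 7700 for enterocyte-like cells. Mmp7 was found in 0 of 52 immune-like cells, which allows a share of up to 5.77% (3 of 52 cells), so that class is too small to set a background for it. Enteroendocrine-like cells had no UMI of Itln1 and 1 of Lyz1, and none of them was among the 72 rich cells.

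The proportions of the 3 defensins were near each other in enterocyte-like and stem/progenitor-like cells, and Defa24 took a larger part in jejunal goblet-like cells. Of the UMIs of the 3 genes Defa24 took 54.5%, Defa17 28.3% and Defa30 17.3% in enterocyte-like cells, and 52.9%, 27.7% and 19.4% in stem/progenitor-like cells. In enteroendocrine-like cells, on 45 UMIs, it was 46.7%, 33.3% and 20.0%. In goblet-like cells Defa24 took 81.8%, Defa17 10.4% and Defa30 7.81%. By library the Defa24 part there was 63.0% and 61.9% in the ileum, on 27 and 21 UMIs, against 81.7% and 85.6% in the jejunum, on 476 and 257 UMIs. Among cells with 10 or more UMIs of the 3, the Defa24 part ran from 60.0% to 92.4% (median 83.3%) in 13 goblet-like cells and from 0% to 91.3% (median 60.0%) in 12 other cells, so the ranges overlapped. In cells with under 5 UMIs of the 7 genes the Defa17 part was 30.4% and 33.8% in ileal libraries against 24.9% and 23.2% in jejunal ones, without overlap between regions.

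Summed over libraries, co-detection of the 7 genes in the same cell was above the product of their shares for all 21 pairs. Without the 72 rich cells it was above for 17 of 21, with none for Lyz1 with Mmp7 or Itln1, and in single libraries it was above for 8 to 20 of 21 pairs with all cells. Defa24 and Defa17 met in 318 cells against 193 from the product of their shares within libraries, a ratio of 1.65, and in 3.21 times that product after thinning to 2000 UMIs. Without the 72 rich cells the ratio was 1.45. Defa24 and Lyz1 met in 41 cells against 39.4, a ratio of 1.04, the lowest of the pairs. That ratio pooled 2.07 and 1.6 in the ileal libraries with 0.687 and 0.654 in the jejunal ones, and without the rich cells it was 0.878. After thinning to 2000 UMIs it was 1.76, on 8 cells, with 5.37 and 0.0 in the ileal libraries and 1.38 and 1.09 in the jejunal ones. A UMI of the 3 defensins was present in 21.8% of the 349 cells with Lyz1 and in 18.4% of the cells without it. For Itln1 it was 36.6% of 112 cells against 18.3%, for Mmp7 28.2% of 85 cells and for Ang4 23.2% of 259 cells. These are descriptions over cells that share libraries and depth.

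The sum of the 7 genes followed the depth of the cell only weakly. Among enterocyte-like cells without the rich ones, mean UMIs rose 6.9-fold to 7.27-fold between cells under 4000 UMIs and cells of 16000 or more. The UMIs of the 7 genes rose from 24.6 to 27.1 per 100 cells in ileum replicate 1 and from 15.4 to 25.7 in ileum replicate 2. In the jejunum they rose from 23.7 to 38.0 in replicate 1 and from 17.0 to 28.1 in replicate 2. That is 1.1-fold to 1.67-fold, so the level in CPM fell 4.32-fold to 6.28-fold over the same range. Genes followed beside them differed in this. Between cells of 2000 to under 4000 UMIs and those of 16000 or more, Defa24 rose from 11.3 to 12.7 and from 6.87 to 12.0 UMIs per 100 cells in ileum replicates 1 and 2, and from 11.4 to 16.9 and from 9.36 to 12.3 in jejunum replicates 1 and 2, which is 1.12-fold to 1.75-fold. Markers of other cell types were as flat in these enterocyte-like cells: Tff3 rose 1.03-fold to 1.51-fold over the libraries, Muc2 1.03-fold to 1.95-fold and Olfm4, a stem cell marker, 1.07-fold to 2.11-fold, so the weak relation to depth is not particular to the 7 genes. Cubn, an endocytic receptor of neonatal enterocytes, rose 7.28-fold to 9.45-fold. Within the 7 genes Ang4 differed from the defensins, with a rise of 3.45-fold to 8.95-fold, while Lyz1 ran from 0.88-fold to 3.62-fold. Between these classes the CPM of Defa24 at the higher depth was 0.164 to 0.258 times that at the lower depth, and that of Ang4 was 0.5 to 1.33 times. The CPM of the defensins, which make up most of the sum, therefore depended on the depth of the cells behind it, which bears on the comparison of regions since jejunal cells were shallower.

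**Figure D4:**
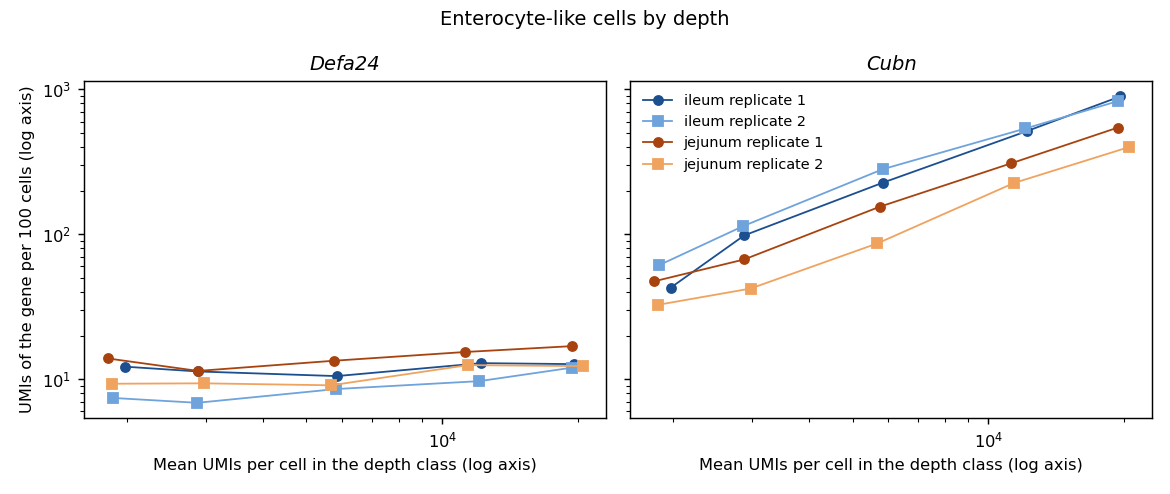
UMIs of Defa24 (left) and Cubn (right) per 100 enterocyte-like cells against the mean UMIs per cell in classes of depth, both on log axes, 1 line per library, without cells of 5 or more UMIs of the 7 genes. The Defa24 lines lie between 6.87 and 16.9, while the Cubn lines climb in every library.

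The design sets the ileum against the jejunum. In sums over all kept cells Defa24 stood at 11.1 and 9.01 CPM in ileal libraries against 28.7 and 19.3 CPM in jejunal ones, Defa30 at 3.51 and 2.73 against 7.65 and 5.48, and Lyz1 at 0.873 and 0.369 against 3.33 and 2.05. For each of these 3 genes both jejunal libraries lay above both ileal ones, and edgeR's quasi-likelihood test put them lower in the ileum, with log2 fold changes of -1.30 (SE 0.22, adjusted p = 0.0298) for Defa24, -1.12 (SE 0.24, adjusted p = 0.0487) for Defa30 and -2.18 (SE 0.46, adjusted p = 0.0486) for Lyz1. Within the mice the log2 ratio was -1.37 and -1.10 for Defa24, -1.12 and -1.01 for Defa30 and -1.93 and -2.48 for Lyz1.
Over all 20368 genes tested, 7.49% passed in either direction and 3.14% passed as lower in the ileum.

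The other 4 genes did not pass. Mmp7 (0.287 and 0.168 against 0.629 and 0.367 CPM; log2 fold change -1.19, adjusted p = 0.143) and Itln1 (0.379 and 0.200 against 0.748 and 0.475 CPM; -1.14, adjusted p = 0.152) had no overlap between regions. Defa17 had 6.49 and 5.87 CPM (ileum) against 10.5 and 6.43 CPM (jejunum), with a log2 fold change of -0.50 (SE 0.25, adjusted p = 0.253). Ang4 had 1.06 and 0.653 against 1.36 and 0.820 CPM (-0.41, SE 0.37, adjusted p = 0.502), and its regions overlapped. Those of Defa17 overlapped too. In all, 5 of the 7 genes had both jejunal libraries above both ileal ones, an order found in 24.6% of all genes with a UMI.

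The calls on all cells depended on scale and, with adjusted p-values near the threshold, on few cells. When UMIs per cell were compared in place of CPM, the median log2 fold change of all genes moved from -0.02 to 0.70, since ileal cells were deeper. On that scale 9581 genes passed, against 1526 in CPM. Of the 7 genes Lyz1 alone passed (-1.41, adjusted p = 0.0106). Defa24 had -0.56 (adjusted p = 0.0890), and Defa17 (0.24) and Ang4 (0.35) changed sign without passing. Among cells of 4000 to under 8000 UMIs 748 genes passed. Itln1, Ang4 and Mmp7 had too few UMIs to be tested there. The defensins and Lyz1 did not pass, with Lyz1 at -2.15 (adjusted p = 0.0646) and Defa24 at -0.80 (adjusted p = 0.116). Without the 72 rich cells 1515 of 20360 genes passed, Lyz1 among them (-1.98, adjusted p = 0.0499). Defa30 then had -1.03 (adjusted p = 0.0613) and Defa24 -0.91 (adjusted p = 0.0787). Without the 20 goblet-like cells none passed, with Lyz1 at -1.96 (adjusted p = 0.0512), Defa30 at -1.04 (adjusted p = 0.0551) and Defa24 at -0.94 (adjusted p = 0.0637). The fold changes of Lyz1 and Defa30 thus moved little. Without ileum replicate 2 none passed, and without ileum replicate 1 or jejunum replicate 1 a lone gene did.

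**Figure D5:**
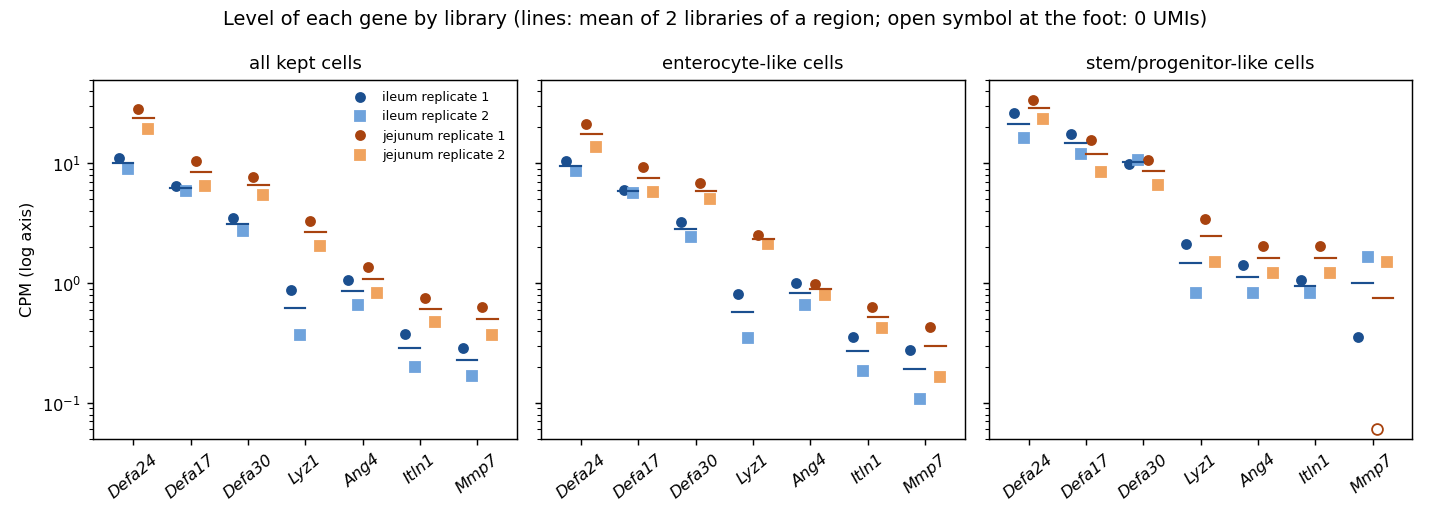
CPM of each gene (log axis) in sums over all kept, enterocyte-like and stem/progenitor-like cells of each library, with a line at the mean of the 2 libraries of a region and an open symbol at the foot of the axis for a library with 0 UMIs. Defa24, Defa30 and Lyz1 are higher in both jejunal libraries in the left and middle panels. In stem/progenitor-like cells the regions overlap for every gene but Itln1, which has 2 to 6 UMIs per library there.

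Within enterocyte-like cells Lyz1 (0.811 and 0.347 against 2.54 and 2.11 CPM; log2 fold change -2.13, SE 0.41, adjusted p = 0.0429) and Defa30 (3.26 and 2.44 against 6.81 and 5.06 CPM; -1.17, SE 0.23, adjusted p = 0.0458) passed as lower in the ileum. Here 7.24% of 19803 genes passed, and 3.07% passed as lower. Defa24 (10.4 and 8.67 against 21.4 and 13.8 CPM) had -0.99 with adjusted p = 0.0578, and it passed with the mouse as a block (adjusted p = 0.0230). The CPM of 4 of the 7 genes did not overlap with the jejunum higher, against 22.2% of genes with a UMI. Per cell, the Defa24 levels of this class overlapped, at 12.8 and 10.0 UMIs per 100 ileal cells against 14.1 and 11.3 per 100 jejunal cells. Those of Lyz1 did not, at 1.00 and 0.401 against 1.68 and 1.73. Among enterocyte-like cells of 4000 to under 8000 UMIs Lyz1 passed again (-2.50, adjusted p = 0.0387).

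In stem/progenitor-like cells 3 of the 7 genes had enough UMIs to be tested, and by edgeR none passed, with 0 also by DESeq2 and none at an unadjusted p of 0.05. With the mouse as a block Defa24 had -0.48 (unadjusted p = 0.0270, adjusted p = 0.168 by edgeR) and none passed. Defa24 had 26.6 and 16.4 CPM (ileum) against 34.0 and 23.6 CPM (jejunum) (log2 fold change -0.45, SE 0.27, adjusted p = 0.492). Defa17 had 17.7 and 11.9 against 15.8 and 8.46 CPM (0.26, SE 0.35) and Defa30 at 9.94 and 10.7 against 10.6 and 6.65 CPM (0.21, SE 0.36). In this class 2.66% of 12546 genes passed. Whether the regional difference itself differed between the classes was not tested.

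The wider alpha-defensin family followed its 3 leading genes only in part. Of 28 symbols beginning with Defa, 26 had a UMI, and the 3 genes held 72.97% of the 10568 family UMIs. Defa20 came next with 7.34%. Of 14 family genes tested between regions over all cells 3 passed, all lower in the ileum, namely Defa24, Defa30 and Defa23 (-1.58, adjusted p = 0.0433), and the median of the 14 was -0.35 against -0.02 for all genes. Defa20 had 3.09 and 2.65 CPM (ileum) against 3.47 and 1.10 CPM (jejunum) (0.28, adjusted p = 0.746), and Defa36 had a log2 fold change of 0.02.

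Genes of the other lists are read against the 3.14% of all genes that were lower in the ileum. Of 10 other secreted Paneth products tested over all cells 1 passed, Clps, which was lower in the ileum (-1.49, adjusted p = 0.0298). The median of the 10 was 0.03. Reg3b and Reg3g, antimicrobial lectins, were high in 1 library, ileum replicate 1, at 193 and 125 CPM, against 1.17 to 22.4 CPM in the others. Of 15 lineage genes tested 3 passed, all lower in the ileum: Ephb3, the receptor that positions cells along the crypt (-4.24, adjusted p = 0.0186), Wnt3, a ligand for stem cells (-2.31, adjusted p = 0.0260), and Cd24a (-2.52, adjusted p = 0.0449). The median of the 15 was -0.39. With the mouse as a block 5 of the 15 lineage genes were lower, and of the 10 secreted products 1 was higher and 2 were lower. That fit called more genes, with 1172 of 20368 lower and 1538 higher, so the 3.14% does not apply to it. Of the 11 goblet markers tested, 1 was higher in the ileum (Fcgbp, 1.83) and 2 were lower (Clca1, -1.57, and Ccl9, -2.01). Goblet-like cells numbered 6 in the ileum and 14 in the jejunum.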

How the data were processed

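Cells were captured by PIPseq and counted by the authors with PIPseeker (sensitivity 3), and the deposited matrices hold raw UMI counts per gene and called cell. The submitters' notes list GRCm39, and the annotation release is not given in the sources used here. The 7 genes and all lists were chosen with earlier results of these data known. Kept cells had 1000 to 6000 genes and under 20% mitochondrial UMIs. Seurat 5.3.0 (R 4.3.3) took 2000 variable genes without the Paneth genes, integrated the libraries by CCA and clustered 30 components at resolution 1. A class needed 3 fixed markers in 10% of a cluster's cells at 1 log2 unit above the rest (5 CPM added). Where more than 1 class met this, the class with the most markers gave the name. An enterocyte-like cluster needed 3 markers in 50% of cells at over -1. These limits were chosen with the data in view. Scrublet in scanpy 1.11.5 marked 7 cells, so it did not work, and no cell was removed as a doublet.

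UMIs were summed per library and tested with edgeR 4.0.16 (filterByExpr, TMM, quasi-likelihood test, Benjamini-Hochberg), without the mouse as a block between regions. DESeq2 1.42.0 was an alternative. Replicate numbers pair the libraries, since both regions came from the same mice, and deviations of same-numbered libraries correlated at 0.244. Only 2 mice were measured, so p-values rest on 2 libraries per region. Exact 95% intervals are Clopper-Pearson and cover counting error only. Each SE of an edgeR log2 fold change is its absolute value divided by the square root of the F statistic. On simulated data the tests recovered 84% and 98% of 4-fold and 8-fold differences between regions over all cells. In the rich-cell comparison they recovered 43% and 63%. Of the genes called on simulated data 10.8% were false between regions over all cells, 10.5% in enterocyte-like cells and 8.62% in the rich-cell comparison. These shares are above what the threshold on adjusted p is meant to allow. Genes named with the rich cells were the 5 highest and 5 lowest fold changes among those called at 20 CPM or more with 1 direction in every library. Of other lists, called genes and those with the most UMIs were named, up to 5 each. Tff3 and Spink4 were named after their values were seen. Sequences and loci were read from GENCODE vM21 (GRCm38), another build than that of the counts, and coordinates were not joined to the counts.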

Additional observations from a re-analysis of the deposited data

Results flagged for a closer look

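Called cells outside the limits on genes and mitochondrial share, which no comparison above used, also held rich cells. Of 5680 such cells, 13 (0.229%) had 5 or more UMIs of the 7 genes, against 72 of 30522 kept cells (0.236%). In jejunum replicate 1 a cell with 1000 genes or fewer had 82 UMIs, 55 of them of Defa24, beside 69 UMIs of Tff3. In ileum replicate 1 a cell with 6000 genes or more had 56 UMIs, 54 of them of Defa24, beside 40 UMIs of Muc2 and 172 of Tff3, which is above the 28 UMIs of the richest kept ileal cell. Cells with 6000 genes or more had at most 5 UMIs in ileum replicate 2 and 6 in jejunum replicate 1. Among cells with a mitochondrial share of 20% or more, the highest had 19 UMIs in jejunum replicate 1, with no Muc2 or Tff3, and 10 in jejunum replicate 2.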

How the results depend on the processing

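Over all kept cells 3 of the 7 genes passed, and 3 also with DESeq2, other size factors, all called cells and the mouse as a replicate block (adjusted p = 0.0112 for Defa24, 0.0237 for Defa30, 0.0151 for Lyz1). The count was 0 without a filter on low counts, without goblet-like cells and in cells of 4000 to under 8000 UMIs, where Itln1, Ang4 and Mmp7 were not tested. It was 1 with sums thinned to the smallest total, under 10% mitochondrial UMIs, without the highest doublet scores, without the rich cells and per cell, and 0 to 2 when a library was left out. In enterocyte-like cells 2 passed, with 3 under the replicate block, 0 without the filter and with thinned sums, 1 under 10% mitochondrial UMIs, at resolution 0.5, in cells of 4000 to under 8000 UMIs and per cell, and 0 to 1 without a library. In stem/progenitor-like cells 0 passed under each alternative run. Defa24, Defa30, Lyz1 and Itln1 were lower in the ileum under all alternatives in which they were tested, over all and enterocyte-like cells.

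Signs that changed were all of genes that did not pass. Per cell, log2 fold changes were 0.24 for Defa17 and 0.35 for Ang4 over all cells, and 0.36, 0.61 and 0.073 for Defa17, Ang4 and Mmp7 in enterocyte-like cells. There, leaving out a library, Mmp7 ran from -1.52 to 0.069 and Ang4 from -0.515 to 0.026. In stem/progenitor-like cells, leaving out a library, Defa17 ran from -0.149 to 0.75 and Defa30 from -0.112 to 0.567. The difference in share was 1.36 percentage points for Defa17 without thinning and -0.813 to 0.300 without a library, and 0.0 for Itln1 at 2 or more UMIs. For Ang4 it was -0.0255 at 1000 UMIs, -0.0207 under 10% mitochondrial UMIs, -0.00607 at 2 or more UMIs and -0.0689 to 0.103 without a library. For any of the 7 genes it ran from -0.528 to -4.05.

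Genes going with rich cells numbered 689, with 274 by DESeq2 (263 higher), 341 by other size factors (281 higher), 394 without the filter, 46 with no replicate block, 399 at 3 or more UMIs, 216 at 10 or more, 22 within enterocyte-like cells, 144 without goblet-like cells and 120 to 410 without a library. Over all genes the region calls were 1526, with 3171 by DESeq2, 2710 with the replicate block, 223 without the filter, 748 in cells of 4000 to under 8000 UMIs, 9581 per cell and 451 to 1772 without a library. In enterocyte-like cells they were 1434, with 3111, 2878, 489, 945 and 10662 in the same order and 133 to 1845 without a library. In stem/progenitor-like cells they were 334, with 788 without the filter and 1080 with the block, and 617 and 819 without ileum replicate 2 and jejunum replicate 1. The Defa24 and Defa17 co-detection ratio was 3.21 thinned and 1.45 without the rich cells, against 1.65. The goblet-like part of the UMIs was 0.0% at resolution 0.5. The comparison without goblet-like cells, the class of 4000 to under 8000 UMIs and the scale per cell were chosen after seeing the data. The causes of these shifts were not tested, other than that leaving out libraries leaves fewer samples.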

Other observations

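Of 10 alpha-defensin family genes tested besides the 3 that helped to choose the rich cells, 8 were higher in them than in cells without the 7 genes, against 1.42% of all genes. Defa3 had a log2 fold change of 5.54 (SE 0.75), Defa23 4.61 (SE 0.88) and Defa20 4.09 (SE 0.59) by edgeR's quasi-likelihood test, while Defa22 (3.02, adjusted p = 0.352) and Defa32 (2.75, adjusted p = 0.270) did not pass. Near-identical copies can share reads with Defa24, Defa17 and Defa30, so these values are not independent of the choice of cells. Sox9, a transcription factor of stem and Paneth cells, was higher by 1.19 (SE 0.27), and Olfm4, a stem cell marker, by 1.83 (SE 0.19). Both are on the marker list of stem/progenitor-like cells. That class gave 17 of the 72 rich cells and 5.97% of all kept cells, and its part in these 2 values was not tested. Olfm4 was named after its value was seen.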
